A study of Mus musculus with 4 samples.

Results

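The guanylate-binding protein (Gbp) genes were examined in plasmacytoid dendritic cells (pDCs), a dendritic cell type known for its output of type I interferon, sorted as mature cells from the spleens of wild-type (WT) and Flt3 knockout (Flt3 KO) mice. Each genotype had 2 biological replicates, each on its own whole-transcript array, and the mice were at steady state. Flt3 encodes the receptor kinase through which FLT3 ligand promotes the development of dendritic cells. The labels give no allele, strain, age or sex, and leave unstated how many animals went into a replicate, so p-values measure the spread between these samples.

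Members were all genes whose symbol is Gbp followed by a digit and that had a probe set annotated to exactly 1 gene symbol. The rule gave 8 genes of the 19938 measured: Gbp2b, Gbp3, Gbp5 and Gbp7 on mouse chromosome 3, and Gbp4, Gbp8, Gbp9 and Gbp11 on chromosome 5. Each was read by a single probe set. Of 5 names proposed for the family, 4 met the rule; Gbp2 did not, because its only probe set is shared with Gbp2b. Gbp6 and Gbp10 likewise occurred only on a probe set shared by 6 family members. The family was chosen by the differences between Flt3 KO and WT already known for Gbp4, Gbp8 and Gbp9 in these same arrays. The values of all members in that contrast, and whether they passed a threshold in it, are therefore a description and support nothing by themselves.

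Guanylate-binding proteins are large GTPases of the dynamin superfamily. Cells make them after interferon, above all interferon-gamma, through transcription factors such as IRF1, and they assemble on membranes of intracellular pathogens and their vacuoles. Mice carry the family in a cluster on each of these chromosomes. Some members end in a lipid-anchor motif that is prenylated, and several act upstream of the inflammasome caspases. The family members are similar in sequence, so probes can share signal between them, and no probe-level values were used here.

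Interferon acts on such promoters through the interferon-stimulated response element (ISRE) and the gamma-activated site (GAS). RefSeq promoter windows of the GRCm38.p6 assembly, from 250 bases before to 50 after a gene start, had entries for 5 of the 11 Gbp symbols, all on chromosome 3. The ISRE was searched as TTTCNNTTTC and the GAS as TTCNNNGAA, on both strands; the patterns did not overlap each other in these windows. The ISRE pattern occurred in 5 of the 6 windows of these genes, at least 1 for each of the 5, and in 3.44% of all 32851 promoter windows. The GAS pattern occurred in 2 of the 6 windows, those of Gbp5 and Gbp7, and in 8.3% of all windows. The stretches below show the ISRE matches, in capitals with 12 flanking bases on each side, since these are the letters the family's chromosome 3 promoters share. They lie at chr3:142496757-142496790 for Gbp5, chr3:142530271-142530304 for Gbp7, chr3:142559987-142560020 for Gbp3, chr3:142594698-142594731 for Gbp2b and chr3:142620592-142620625 for Gbp2, all on the plus strand.
Gbp5: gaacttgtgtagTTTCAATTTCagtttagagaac
Gbp7: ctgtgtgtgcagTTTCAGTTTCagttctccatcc
Gbp3: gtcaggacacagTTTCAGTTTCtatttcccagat
Gbp2b: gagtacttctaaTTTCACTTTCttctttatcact
Gbp2: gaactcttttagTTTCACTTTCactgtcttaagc
The first base of the match lies 165 bases before the start of Gbp5, 137 before that of Gbp2b, 59 before Gbp2, 53 before Gbp7 and 45 before Gbp3, whose window holds a second, overlapping match. These starts are the ones the promoter windows were built on. For Gbp2b and Gbp3 they differ from the gene starts used below to order the genes. A second, more downstream window of Gbp3 held no match. A match is a description of letters and not a site.

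The arrays were close in scale but not identical. Over 30177 probe sets the median intensities were 55.1 and 55.3 in WT against 57.2 and 56.2 in Flt3 KO. The upper quartiles went the other way, at 214.6 and 212.8 in WT against 206.2 and 209.5 in Flt3 KO. On the log2 scale Flt3 read 10.71 and 10.77 in the WT arrays, against 8.46 and 8.61 in those of the knockout, lower in both arrays labelled as knockout (limma adjusted p = 7.4e-05). The arrays labelled as pDCs carried signal for the pDC markers Siglech, Bst2 and Tcf4, with WT means of 12.65, 12.92 and 12.25 against Flt3 KO means of 12.52, 12.85 and 12.21; the median of all genes was 5.90. All 12 measured pDC markers had differences below 0 (10 under quantile normalization), and 6 of them passed, as given with the other markers. In the fit across all genes 476 passed an adjusted p under 0.05, which is 2.39% of 19938 (1.08% higher and 1.31% lower). An unadjusted p under 0.05, used below only beside counts of 0, was reached by 17.1% of all genes, 6.95% higher and 10.1% lower. Permuting 2 arrays against 2 gives no exact two-sided p below 0.3333 for 1 gene, and the calls therefore depend on the spread pooled over genes by limma.

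Of the 4 Gbp genes of chromosome 5, 3 were lower in Flt3 KO pDCs, and Gbp11 and the 4 genes of chromosome 3 did not pass the threshold. Past the threshold were 3 of the 8 members, Gbp4, Gbp8 and Gbp9, all lower, against 1.31% of all genes called lower; because the contrast chose the family, nothing is read from that count. The median log2 difference (Flt3 KO minus WT) was −0.47 over the 4 genes of chromosome 5 and 0.067 over the 4 of chromosome 3, beside −0.0010 over all genes. Both Flt3 KO arrays lay below both WT arrays for 5 members, Gbp2b, Gbp4, Gbp8, Gbp9 and Gbp11, which was so for 25.3% of all genes. The genotypes overlapped for Gbp3 and Gbp7, and Gbp5 lay higher in Flt3 KO by a gap of 0.012. Over all genes 47.2% did not overlap in either direction. With WT replicate 1, WT replicate 2 or Flt3 KO replicate 2 left out 0 members passed, and without Flt3 KO replicate 1 only Gbp4 did, in fits with 1 residual degree of freedom; the 3 differences stayed negative.

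**Figure D1:**
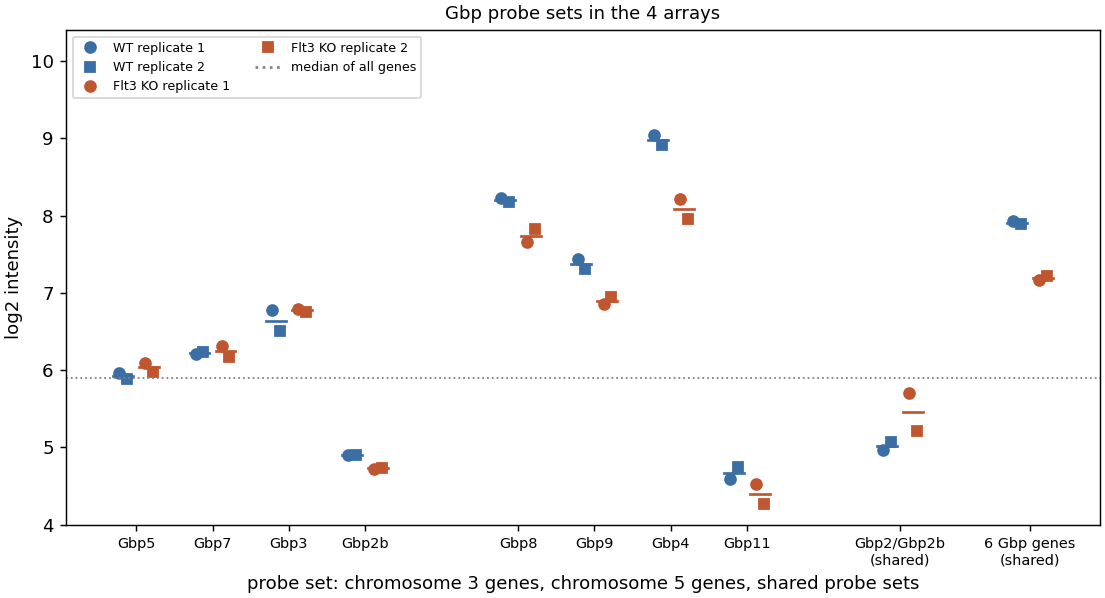
Log2 intensity of each Gbp probe set (y axis) in the 4 arrays, blue for WT and orange for Flt3 KO, circles for replicate 1 and squares for replicate 2, with a bar at each group's mean and a dotted line at the median of all genes, 5.90. The Flt3 KO points of Gbp4, Gbp8, Gbp9 and the probe set shared by 6 Gbp genes lie below the WT points, and those of Gbp3 and Gbp7 mix with them.

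Gbp4 had the widest difference of the family. Its log2 intensity was 9.05 and 8.92 in WT pDCs, against 8.22 and 7.95 in Flt3 KO pDCs. Both Flt3 KO arrays were well below WT, the second more so, and the gap between the groups was 0.69. The mean fell by 0.89 (SE 0.098, n = 2 each), a 1.86-fold lower intensity. It was the difference ranked 18 from the lowest among 19938 genes.

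Gbp9, its neighbour in the cluster, read 7.44 and 7.31 in WT against 6.85 and 6.95 in Flt3 KO. The difference was −0.48 (SE 0.083), a 1.39-fold lower intensity, with a gap of 0.36 between the groups. Gbp8, at the other side of Gbp9, read 8.23 and 8.18 in WT against 7.66 and 7.83 in Flt3 KO. Its difference was −0.46 (SE 0.079), a 1.38-fold lower intensity, with a gap of 0.35. For Gbp8 and Gbp9 replicate 1 was the lower of the Flt3 KO arrays, whereas for Gbp4 it was replicate 2. Relative to the WT mean the 3 genes were at −0.76, −0.55 and −0.53 in Flt3 KO replicate 1 and at −1.03, −0.38 and −0.43 in replicate 2, in the order Gbp4, Gbp8, Gbp9.

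Gbp11 is a transcribed pseudogene in RefSeq. It was dim on all arrays, at 4.59 and 4.75 in WT against 4.52 and 4.27 in Flt3 KO. The difference of −0.27 (SE 0.12) did not pass, and the groups were 0.070 apart. A probe set annotated to Gbp4, Gbp6, Gbp8, Gbp9, Gbp10 and Gbp11 together read 7.93 and 7.89 in WT against 7.17 and 7.22 in Flt3 KO. Its difference was −0.71 (SE 0.072, from a fit over all 30177 probe sets), and its replicates were 0.047 apart in WT against 0.055 apart in Flt3 KO. Because it shares annotated genes with the single-gene probe sets, it is no separate reading of Gbp6 or Gbp10.

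The chromosome 3 genes had small differences. Gbp3 read 6.78 and 6.50 in WT against 6.80 and 6.75 in Flt3 KO, a difference of 0.14 (SE 0.11), with both Flt3 KO values inside or just above the WT range. Gbp7 read 6.21 and 6.23 in WT against 6.31 and 6.17 in Flt3 KO, with the WT values between those of Flt3 KO. Its difference was 0.022 (SE 0.089), and its sign turned when each array was centred on its median. Gbp5, whose product is known for promoting inflammasome assembly, read 5.96 and 5.88 in WT against 6.09 and 5.98 in Flt3 KO, a difference of 0.11 (SE 0.091).

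Gbp2b, the gene long called Gbp1, read 4.90 in both WT replicates and 4.72 and 4.73 in Flt3 KO, below the median of all genes throughout. Its difference was −0.17 (SE 0.091) and did not pass, although neither genotype overlapped the other, with a gap of 0.17. The probe set shared by Gbp2 and Gbp2b read 4.97 and 5.06 in WT against 5.70 and 5.21 in Flt3 KO. Its difference was 0.44 (SE 0.17), opposite in sign to that of the Gbp2b probe set, and the Flt3 KO replicates were 0.49 apart. A value for Gbp2 alone could not be given.

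**Figure D2:**
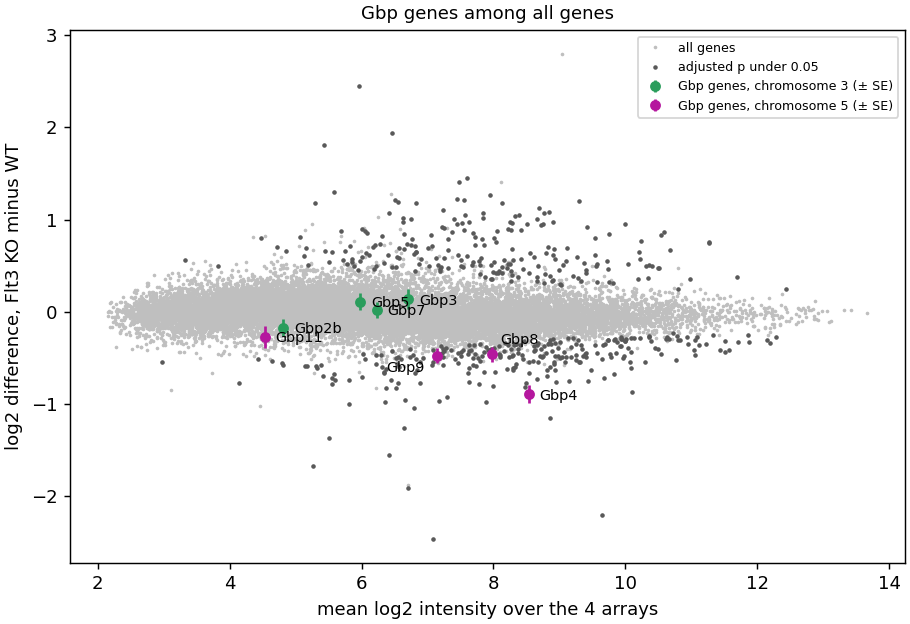
Log2 difference, Flt3 KO minus WT (y axis), against mean log2 intensity over the 4 arrays (x axis) for 19938 genes in grey, with the 476 past the threshold darker and the Gbp genes in green (chromosome 3) and magenta (chromosome 5) with bars of 1 SE. Gbp4 at −0.89 lies at the lower edge of the cloud, Gbp8 and Gbp9 lie among the called lower genes, and the other 5 members lie within the cloud.

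The genes that flank the clusters were then compared, taking the 10 measured genes on each side in RefSeq order. None of the 20 neighbours of the chromosome 5 cluster passed the threshold in limma; their differences ran from −0.25 to 0.24 with a median of −0.030, and 1 had an unadjusted p under 0.05. Abcg3, a transporter gene next to Gbp8, differed by −0.11 (SE 0.15), and Lrrc8b, a volume-regulated anion channel subunit gene next to Gbp11, by −0.067 (SE 0.092). None of the 20 neighbours of the chromosome 3 cluster passed either, with differences from −0.27 to 0.44, a median of −0.021 and 4 at an unadjusted p under 0.05. The highest was that of Pdlim5, next to Gbp5, at 0.44 (SE 0.098). Flt3 itself lies on chromosome 5, outside these flanking genes.

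**Figure D3:**
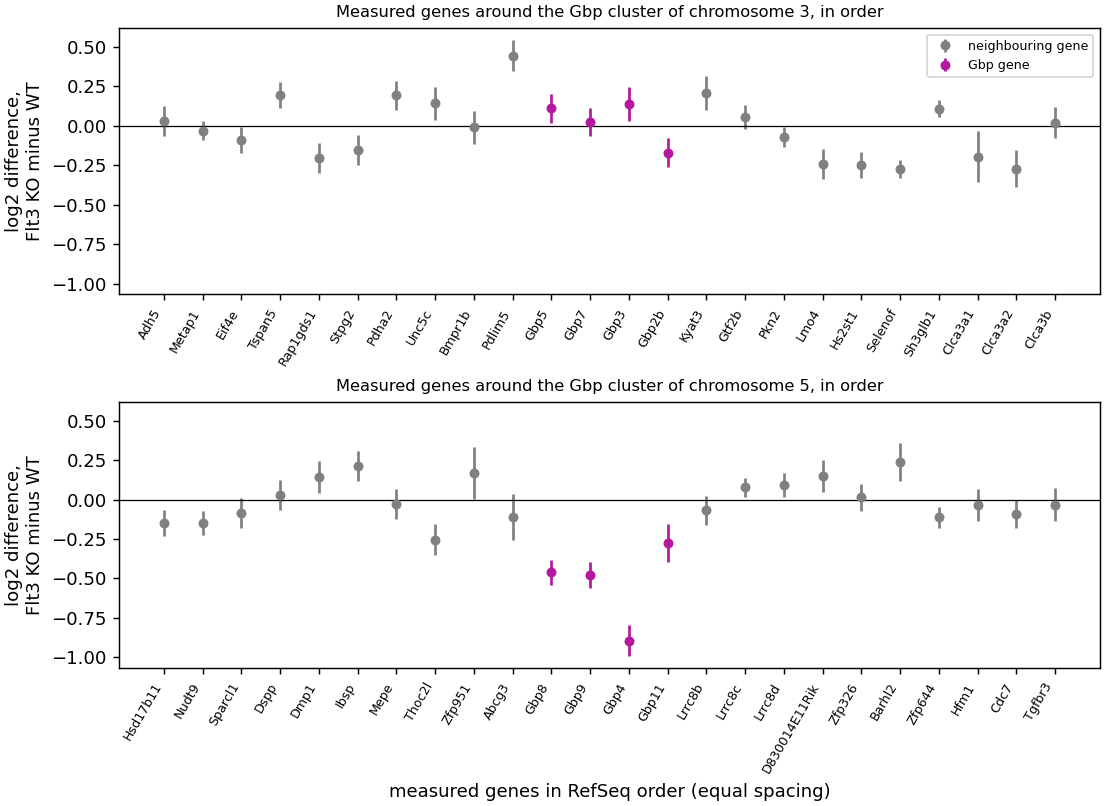
Log2 difference, Flt3 KO minus WT, with bars of 1 SE (y axis) for the measured genes in RefSeq order around the Gbp clusters of chromosome 3 (top) and chromosome 5 (bottom), evenly spaced on the x axis; Gbp genes are magenta and the 10 neighbours on each side grey. Gbp4, Gbp8 and Gbp9 lie between −0.89 and −0.46, while the neighbours of their cluster lie between −0.25 and 0.24.

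Genes that act before the Gbp genes in the interferon pathway gave 5 calls. Of 7 receptor and kinase genes 1 rose, Jak2, a kinase of the interferon-gamma receptor, from 8.71 and 8.81 to 9.39 and 9.52 (difference 0.69, SE 0.070, limma adjusted p = 0.0071), where 1.08% of all genes were called higher. The receptor chains Ifngr1 and Ifngr2 had differences of 0.20 (SE 0.087) and −0.10 (SE 0.049) and did not pass. Of 7 measured transcription factor genes, 2 fell, where 1.31% of all genes were called lower: Irf8 by 0.31 (limma adjusted p = 0.022) and Irf7 by 0.30, the latter at the edge of the threshold (limma adjusted p = 0.049995). Irf8 is also counted among the pDC markers. Irf1, the direct activator of Gbp genes, read 9.20 and 9.17 in WT against 9.20 and 9.08 in Flt3 KO, a difference of −0.049 (SE 0.063). Among 6 inhibitors of the pathway, Socs3 rose by 0.56 and Usp18 fell by 0.46 (limma adjusted p = 0.028 and 0.023), and the interferon-gamma inhibitor Socs1 differed by −0.029 (SE 0.082).

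Other genes induced by interferon differed from one another. Of 22 measured genes on a list of interferon-gamma-induced genes, 3 fell, 0 rose and 19 did not pass (median −0.052; −0.12 without WT replicate 1 and 0.010 without WT replicate 2), beside the same 1.31%. The tryptophan-degrading enzyme gene Ido1 fell by 0.69, from 5.79 and 5.72 to 4.99 and 5.15 (SE 0.099, limma adjusted p = 0.020). The immunoproteasome gene Psmb9 fell by 0.27 and Nlrc5, the activator of MHC class I genes, by 0.23 (limma adjusted p = 0.048 and 0.049). Of 30 measured type I interferon-stimulated genes, 3 fell, 0 rose and 27 did not pass, again beside 1.31% (median −0.12; −0.20 without WT replicate 1 and −0.055 without WT replicate 2): Oasl1 by 0.76, Ifi27l2a by 0.44 and Tor3a by 0.35. The Nlrc5 and Tor3a calls were lost under quantile normalization. Those of Irf7 and Nlrc5 were lost with 16 added to each intensity, and those of Socs3 and Nlrc5 with probe sets averaged. With the replicate block the calls of Irf7, Psmb9, Nlrc5 and Tor3a were lost. When the intensity trend was left out, and again with all probe sets tested together, 8 of the 11 calls named here and among the pathway genes were lost, all but those of Jak2, Ido1 and Oasl1. With any 1 array left out none of the 11 passed.

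GTPases of the other interferon-induced families gave no call of their own. Of 7 measured with a probe set of their own none passed in limma, all 7 differences were below 0 with a median of −0.17 (5 of 7 below 0 without Flt3 KO replicate 2; median −0.29 without WT replicate 1 and −0.26 without Flt3 KO replicate 1), and 1, Mx1, had an unadjusted p under 0.05. Mx1, an antiviral dynamin-like GTPase, read 6.25 and 6.34 in WT against 5.93 and 5.87 in Flt3 KO (difference −0.40, SE 0.087, limma adjusted p = 0.076). Its call was gained when arrays were centred and when dim genes were removed. Only 3 of the 7 genes were at or above the median level of all genes. The others were dimmer, which limits what their differences show. Mx2 differed by −0.34 (SE 0.15). The immunity-related GTPases Irgm1 and Iigp1, which work beside Gbp proteins at pathogen vacuoles, differed by −0.098 (SE 0.11) and −0.15 (SE 0.12), with overlapping groups.

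Probe sets shared between GTPase paralogs went both ways, and are given after their values were seen. The set of Irgm2 and Igtp differed by −0.14 (SE 0.10). The 2 sets of Tgtp1 and Tgtp2 differed by 0.25 and 0.13, and the 3 sets of Gvin1 and its relatives, giant interferon-induced GTPases, by 0.38, 0.21 and 0.34.

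Genes that work with or resemble Gbp proteins gave no call. Of 20 genes of the inflammasome, autophagy conjugation and related partners none passed in limma, where an unadjusted p under 0.05 was reached by 3 higher and 1 lower (median 0.017; −0.037 without WT replicate 2 and −0.010 without Flt3 KO replicate 2). The kinase gene Pim1 and the pore-forming gasdermin gene Gsdmd had the lowest p, with differences of 0.45 (SE 0.091) and 0.28 (SE 0.067). Pim1 missed the threshold here and passed it under quantile normalization, with robust variance and with dim genes removed (limma adjusted p = 0.057 here and 0.028, 0.040 and 0.027 there). Casp4, the cytosolic lipopolysaccharide sensor, differed by 0.096 (SE 0.085). Of 6 prenylation genes none passed in limma (median 0.021; unadjusted p under 0.05 for 1 higher and 1 lower); the prenyltransferase subunit genes Fnta and Pggt1b differed by −0.24 (SE 0.085) and 0.26 (SE 0.10). Of 13 measured dynamin superfamily genes that are not interferon-induced none passed in limma (median 0.0047; unadjusted p under 0.05 for 1 higher and 1 lower), with Ehd4 at 0.21 (SE 0.063) and Opa1 at −0.22 (SE 0.076). The medians of these 3 lists turned sign when arrays were centred.

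**Figure D4:**
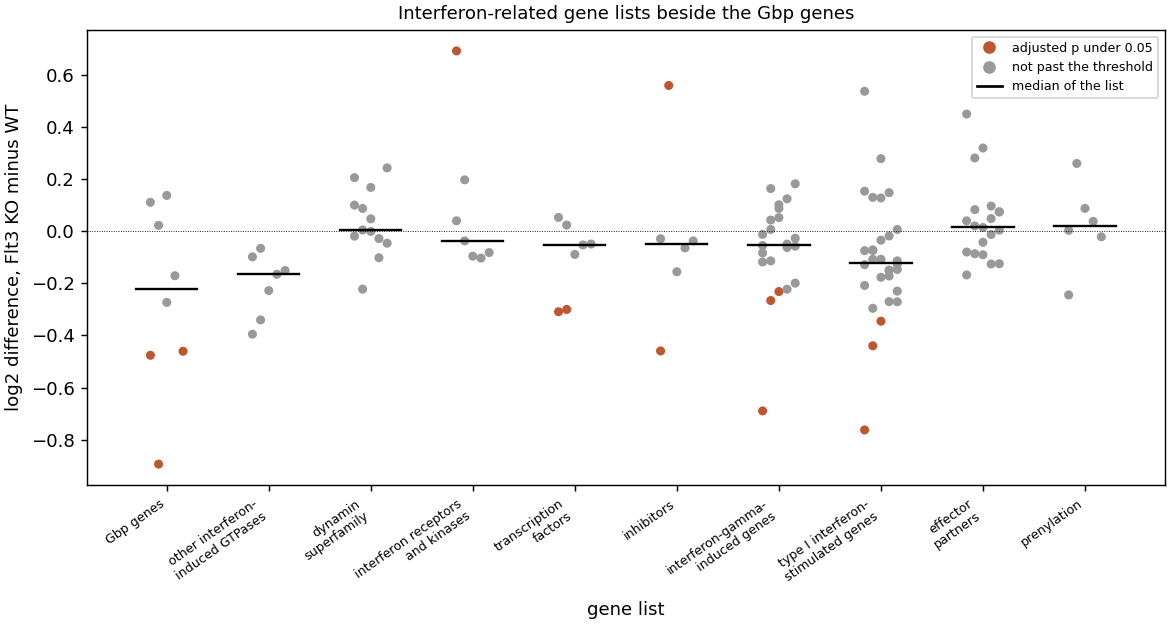
Log2 difference, Flt3 KO minus WT (y axis), of each gene in the Gbp family and in 9 related lists (x axis), orange where past the threshold and grey otherwise, with a bar at each list's median. Orange points are 3 of 8 for the Gbp genes and at most 3 in any other list, and Jak2 at 0.69 and Socs3 at 0.56 are the only orange points above 0.

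Markers of other cells moved between the same arrays. Of 16 monocyte and macrophage markers 5 rose and 0 fell, where 1.08% of all genes were called higher; their summed linear intensity was 5144.1 and 4750.8 in WT against 5807.5 and 7504.6 in Flt3 KO, and none of them read as 0, since array intensities have no true zero. The sum was highest in Flt3 KO replicate 2. Those called were Ccr2, Fn1, Cx3cr1, Cd14 and Lyz2. Of the 16 differences 14 were above 0 and 2 below. Ly6c2, also on that list, was read only by sets shared with Ly6c1 and was not counted. These shared sets differed by −0.034 (SE 0.049) and 0.0040 (SE 0.040). Of 12 pDC markers 6 fell and 0 rose, where 1.31% of all genes were called lower. Their sums were 44752.2 and 44644.8 in WT against 39157.9 and 39299.7 in Flt3 KO. Without the intensity trend 1 of the pDC markers and 2 of the monocyte and macrophage markers passed. With all probe sets tested together 4 of each list did. The other alternatives that kept all arrays gave 5 to 7 pDC calls and 5 calls on the other list. With 1 array left out, in fits with 1 residual degree of freedom, most or all calls of both lists were lost. In those fits the pDC median ran from −0.26 to −0.22 (−0.24 with all arrays). The monocyte and macrophage median, 0.39, was 0.14 with Flt3 KO replicate 2 left out and 0.55 with replicate 1 left out. Among other lists, B cell, T cell, neutrophil, erythroid and progenitor markers gave no call in limma (unadjusted p under 0.05 for 1, 3, 1, 0 and 1 higher and for 3, 1, 1, 2 and 0 lower); conventional dendritic cell markers gave 3 higher and 1 lower (Flt3), plasma cell markers 2 higher and 2 lower, and NK cell markers 1 higher. The globin genes, also erythroid markers, were read only by shared probe sets, were not in that count, and were highest in Flt3 KO replicate 2 and lowest in WT replicate 2. The 2 sets of Hba-a1 and Hba-a2 differed by 0.77 and 0.78 (SE 0.27 for both) and the 2 sets that list Hbb-bt by 0.57 and 0.56 (SE 0.29 for both). The part of these markers in the Gbp differences was not tested. In sorted bulk samples, fewer cells that express a gene and less RNA per cell cannot be told apart.

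The genes whose values ran most like those of the lower members over the 4 arrays were found by the root mean square difference between gene-centred log2 values. For Gbp4 they were Plag1 (0.056), Plxna2 (0.064) and Mgst2 (0.075). For Gbp8 they were Them6 (0.016), Capg (0.020) and Ifi208 (0.025), and for Gbp9 H2-Oa (0.0099), Enho (0.010) and Dgke (0.018). These genes had differences between −0.97 and −0.43, and the measure draws on the same contrast as the choice of the members.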

How the data were processed

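The authors deposited 1 processed intensity per probe set and array, on a linear scale; how background was corrected and values were summarised and scaled is not given in the sources used here, and detection calls were not used. Per the labels, RNA was amplified with an Ambion kit and biotin-labelled. The platform annotation named the probe sets (21789 with 1 symbol, 1621 with several, 6767 with none) and placed in gene order with RefSeq (GRCm38.p6). For genes with several probe sets the one with the highest mean was kept.

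Intensities were converted to log2 with no constant and no filter, and limma 3.58.1 (R 4.3.3; lmFit, then eBayes with intensity trend, no covariate) compared the genotypes, Benjamini-Hochberg over 19938 genes, threshold 0.05. SE is limma's moderated one. The script was tested on simulated data. The number of arrays limits the precision. Members and lists were chosen with earlier results of these data known. Named genes were all members, shared Gbp probe sets, list genes past the threshold or of lowest p, flanking genes past it, a few fixed pathway genes, and the 3 genes most like each called member; flanking genes named without passing were chosen after their values were seen. Alternatives were scaling, normalization, variance, constant, dim-gene filter, probe set choice, replicate block and leaving out arrays.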

Additional observations from a re-analysis of the deposited data

How the results depend on the processing

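Gbp4, Gbp8, Gbp9, Gbp2b and Gbp11 stayed lower and Gbp5 higher in Flt3 KO in every alternative run that tested them; without 1 array Gbp4 ran from −1.03 to −0.76, Gbp8 from −0.55 to −0.38 and Gbp9 from −0.54 to −0.41. Gbp7 turned to −0.014 with arrays centred and to −0.047 without Flt3 KO replicate 1 (0.092 without replicate 2), and Gbp3 to −0.00077 without WT replicate 2 (0.28 without WT replicate 1); the cause was not tested. The 3 member calls held with centring, quantile normalization, robust variance, 16 added, dim genes removed and probe sets averaged. Only 1, that of Gbp4, held without the trend, with all probe sets tested and with the replicate block. Each alternative repeats the contrast that chose the family. The replicate numbers pair nothing in the labels, and same-numbered arrays did not deviate together (r = −0.017 across genes); with the replicate block 375 genes passed. Over all genes 108 passed without the trend, 219 with all probe sets tested and 724 with dim genes removed, where fewer were tested. With 1 array left out, 0 to 54 genes and 0 to 1 members passed; such fits have 1 residual degree of freedom and assume that the lone array varies like the other group. Of 11 calls in the context lists 3 (Jak2, Ido1 and Oasl1) held in every alternative that kept all arrays. Centring gave 217 higher and 443 lower genes against 215 and 261. Gbp2b, Gbp11 and the Gbp2 probe set were dimmer than the median gene, which limits what their differences show.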
